A study of Homo sapiens with 12 samples.

Results

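Autophagy genes, 40 in all, were followed in human motor neurons (iMNs) and in excitatory glutamatergic neurons (i3Ns) of a study of SMN depletion. They were chosen by name, as a list of the core machinery, and matched to the gene symbols of the deposited expression tables. All 40 were found in both tables, each under 1 identifier, among 15660 symbols that the tables share. The iMNs were differentiated with small molecules from an induced pluripotent stem cell line that carries a Td-Tomato reporter under the HB9 promoter, and were sorted for the reporter. The i3Ns were made from H1, an established embryonic stem cell line, by inducing the transcription factor NGN2. In each neuron type, 3 libraries came from cells with a lentiviral shRNA against *SMN1* and *SMN2* (*SMN*-KD) and 3 from cells with a scrambled shRNA (SCR), so the cells of all 12 libraries, controls included, carry a Tet-regulated shRNA vector that also expresses TagRFP. Each neuron type came from 1 stem cell line.

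The value used for each gene was its mean normalized count. It is the authors' mean, over the 6 libraries of a neuron type, of read counts estimated with Salmon and normalized by DESeq2. It pools SCR and *SMN*-KD libraries. Values of single libraries were not analysed here, so no level below has an SD, no effect of the knockdown is given, and differences between neuron types are described by size with no test. Over all genes, the means summed to 4.33e+07 in iMNs and 4.50e+07 in i3Ns, and the depth of single libraries is unknown. The deposited means of *SMN1* and *SMN2* together came to 1174 in iMNs and 1079 in i3Ns, which, being pooled, cannot show the knockdown. Since the tables were normalized separately, log2 ratios of i3Ns over iMNs were set to 0 at the median of the 12667 genes with an average of at least 100 over the 2 means. That median lay at 0.10, and all ratios and folds below are relative to it. Neuron type, stem cell line, protocol and sorting cannot be told apart in these ratios, nor can fewer cells of a type and less RNA per cell.

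Autophagy encloses cytoplasmic cargo in a double membrane that closes into an autophagosome and fuses with the lysosome. The ULK kinase complex starts it, and the class III PI3-kinase complex then marks the membrane with a phosphoinositide. PROPPIN proteins (WIPI1, WIPI2, WDR45B and WDR45) read this mark, and ATG2 and ATG9 proteins supply lipid. Small ubiquitin-like ATG8 proteins, the LC3 and GABARAP subfamilies, are attached to the growing membrane by a conjugation system, and cargo receptors bind to them. Neurons depend on this pathway because they do not divide, and autophagosomes that form in the axon are carried back to the cell body.

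Across the 40 genes, levels were similar in both neuron types. Mean normalized counts ran from 247 (*ATG4C*) to 15432 (*GABARAPL1*) in iMNs and from 229 (*ATG4C*) to 23150.1 (*WDFY3*) in i3Ns, and 31 genes were at 1000 or more in both. The median log2 ratio was 0.06, with quartiles of -0.21 and 0.28, beside quartiles of -0.46 and 0.38 for all genes compared. For 31 of the 40 (77.5%) the ratio lay within 0.5 of 0 on the log2 scale, and the same was true of 56.7% of all genes compared. Past 2-fold were *WIPI1*, higher in i3Ns, and *GABARAPL1* and *MAP1LC3A*, higher in iMNs. These are 3 of 40 (7.5%), beside 19.5% of the 12667 genes, of which 8.01% were past 2-fold higher in i3Ns and 11.5% past 2-fold higher in iMNs. Among genes with an average of at least 1000, the share past 2-fold was 13.9%. Just inside 2-fold were *WDR45* (-0.93) and *WDFY3* (0.82), and the next was *ATG14* (0.79). Pearson's r between the log2 levels in iMNs and i3Ns was 0.92 over the 40 genes and 0.83 over all 12667 compared. It is given without a test, since its points are genes of the same pooled libraries and not samples.

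**Figure D1:**
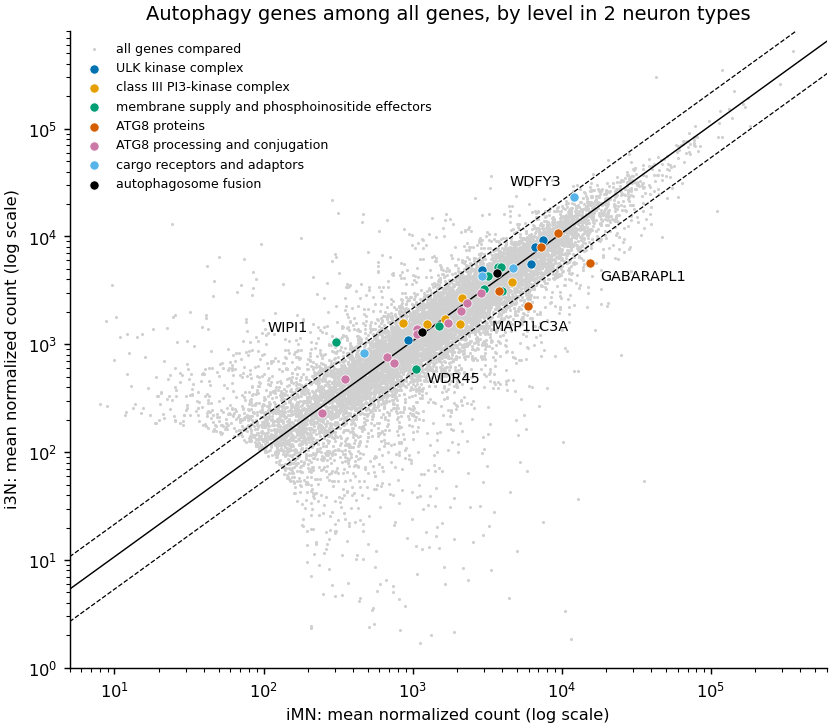
Mean normalized count of each gene in iMNs (x axis) and i3Ns (y axis), both on log scales and pooled over SCR and *SMN*-KD libraries, with the 40 autophagy genes coloured by role over all 12667 genes compared in grey. The solid line is the median ratio and the dashed lines are 2-fold from it, and only *WIPI1*, *GABARAPL1* and *MAP1LC3A* among the coloured points lie outside the dashed lines.

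The ATG8 genes, which encode the proteins that coat the autophagosome membrane, were the most highly expressed of the list per length, and both genes past 2-fold higher in iMNs were among them. Divided by the length of the MANE Select transcript, the reference transcript of a gene, the 5 ATG8 genes took the first 5 places of the 40 in each neuron type, between 3894 and 8195 normalized counts per kb in iMNs and between 2342 and 6055 in i3Ns. With these lengths, these 5 were the members above the 90th percentile of genes. With the coding length *ATG12* joined them in both neuron types, and with the longest annotated transcript *GABARAPL2* left them in i3Ns and *ULK1* and *WDFY3* joined. Levels per kb below use the MANE Select transcript unless another length is named. *GABARAPL1* (ENSG00000139112, chr12:10212458-10223128, plus strand, GRCh38) had a mean normalized count of 15432 in iMNs and 5639 in i3Ns, 2.93-fold higher in iMNs (log2 ratio -1.55). *MAP1LC3A* (ENSG00000101460, chr20:34546854-34560345, plus strand), which encodes LC3A, had 5957 in iMNs and 2258 in i3Ns, 2.83-fold higher in iMNs (log2 ratio -1.50). Their absolute log2 ratios were larger than those of 89.6% and 89.0% of all genes compared.

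The other ATG8 genes were within 2-fold. *MAP1LC3B*, which encodes the LC3B protein commonly used to count autophagosomes, had means of 9404 in iMNs and 10796 in i3Ns (log2 ratio 0.10). *GABARAP* had 7283 and 7987 (0.03), and *GABARAPL2* had 3793 and 3139 (-0.37). The make-up of the family by these means thus differed between the neuron types. *GABARAPL1* was 29.1% of the family's summed level per kb in iMNs and 15.2% in i3Ns, and *MAP1LC3A* was 21.9% and 11.9%. *GABARAP* had 19.6% in iMNs and 30.8% in i3Ns, and *MAP1LC3B* had 15.5% and 25.6%. Which of these led in i3Ns depended on the length, since with the coding length *MAP1LC3B* had 34.8% and *GABARAP* 27.5%. With all 3 lengths, *GABARAPL1* and *MAP1LC3A* had larger shares in iMNs than in i3Ns. This is no separate support, since a gene's ratio between the neuron types does not depend on length and these 2 had the lowest ratios of the family.

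Per kb of MANE Select transcript, the LC3 subfamily (*MAP1LC3A* and *MAP1LC3B*) held 37.5% of the ATG8 level in both neuron types, with 1 member of each subfamily past 2-fold lower in i3Ns. This evenness depended on the transcript length used, since the LC3 share was 43.4% in iMNs and 38.6% in i3Ns with the longest annotated transcript and 35.5% and 42.3% with the coding length. The change of a ratio between neuron types does not depend on length. *MAP1LC3B* over *MAP1LC3A* was 3.03-fold higher in i3Ns than in iMNs, and *GABARAP* over *GABARAPL1* was 3.00-fold higher. Exons of *GABARAPL1* overlap those of its antisense gene *GABARAPL1-AS1*, and exons of *MAP1LC3B* overlap *FBXO31* on the other strand, while *MAP1LC3A* had no such overlap. Exons of *GABARAP* overlap another gene on the same strand, ENSG00000262526, so its reads may be shared with that gene. Reads of *MAP1LC3B* may also be split with its near-identical copy *MAP1LC3B2*, which was listed at 18.0 normalized counts in iMNs and 10.2 in i3Ns.

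**Figure D2:**
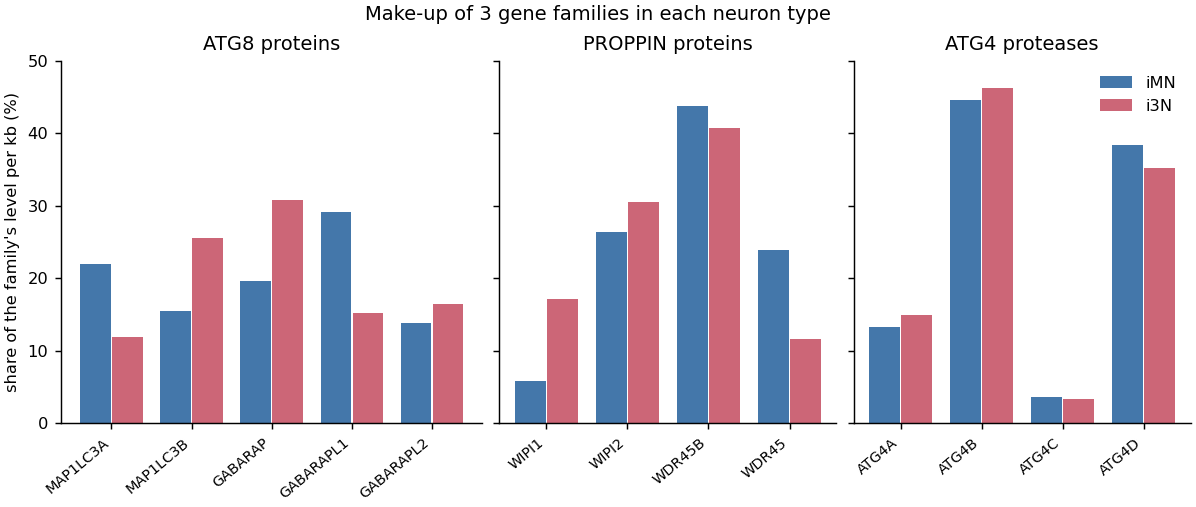
Share of each member (bars, y axis in %) in the summed mean normalized count per kb of its family, in iMNs (blue) and i3Ns (red), for the 5 ATG8 genes, the 4 PROPPIN genes and the 4 ATG4 proteases. *GABARAPL1* and *MAP1LC3A* take a larger share in iMNs, *WIPI1* a larger share in i3Ns, and the ATG4 bars stay close to each other (44.6% and 46.3% for *ATG4B*).

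Among the 8 genes for membrane supply and for reading the phosphoinositide mark, the PROPPIN genes *WIPI1* and *WDR45* had the largest differences, in opposite directions. *WIPI1* (ENSG00000070540, chr17:68420948-68457513, minus strand, GRCh38) encodes a PROPPIN that gathers at the forming autophagosome. Its mean was 309 normalized counts in iMNs and 1043 in i3Ns, 3.15-fold higher in i3Ns (log2 ratio 1.66), the largest ratio of the 40 in that direction. *WDR45* (ENSG00000196998, chrX:49074433-49101170, minus strand), mutated in a neurodegeneration with brain iron accumulation, went the other way, with 1053 in iMNs and 592 in i3Ns (log2 ratio -0.93, 1.91-fold higher in iMNs). The remaining PROPPINs differed less, *WIPI2* with means of 3226 and 4320 (0.32) and *WDR45B* with 3013 and 3247 (0.01).

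*WIPI1* made up 5.87% of the PROPPIN level per kb in iMNs and 17.1% in i3Ns, while *WDR45* made up 23.9% and 11.6%. *WDR45B* had the largest share of the 4 in both, 43.8% and 40.8%, but with the coding length *WIPI2* (41.5%) was slightly above it (41.2%) in i3Ns. *WIPI2*, which recruits the conjugation machinery, exceeded *WIPI1* per kb by 4.49-fold in iMNs and 1.78-fold in i3Ns, and with the coding length by 10.3-fold and 4.07-fold. Exons of *WIPI1* overlap those of *ARSG* on the opposite strand, and exons of *WDR45* overlap ENSG00000288053 on the same strand. *ATG2A* and *ATG2B* encode lipid transfer proteins, and their log2 ratios were -0.12 and 0.38. *ATG9A*, which encodes a lipid scramblase carried on vesicles, had means of 3941 and 5239 (0.31), and *VMP1*, a scramblase of the endoplasmic reticulum, had 3999 and 3096 (-0.47).

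Promoter sequence is shown for *GABARAPL1* and *WIPI1*, the members past 2-fold that had a promoter in the reference used. *MAP1LC3A*, also past 2-fold, had none there and was not searched. Each run covers 300 bases, from 250 before the start of the transcript to 50 after it, from RefSeq on GRCh38.p14, at chr12:10212627-10212926 (plus strand) and chr17:68457447-68457746 (minus strand). Capitals mark TGACGTCA, the full site of CREB family factors, and CCAAT or its complement ATTGG, the box bound by NF-Y.
GABARAPL1: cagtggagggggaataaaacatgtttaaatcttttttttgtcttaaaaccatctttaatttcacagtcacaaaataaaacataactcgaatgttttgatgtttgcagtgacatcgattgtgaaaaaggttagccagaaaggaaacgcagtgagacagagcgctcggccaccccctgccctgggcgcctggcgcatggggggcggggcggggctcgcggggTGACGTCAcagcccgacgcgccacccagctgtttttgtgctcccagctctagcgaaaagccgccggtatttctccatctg
WIPI1: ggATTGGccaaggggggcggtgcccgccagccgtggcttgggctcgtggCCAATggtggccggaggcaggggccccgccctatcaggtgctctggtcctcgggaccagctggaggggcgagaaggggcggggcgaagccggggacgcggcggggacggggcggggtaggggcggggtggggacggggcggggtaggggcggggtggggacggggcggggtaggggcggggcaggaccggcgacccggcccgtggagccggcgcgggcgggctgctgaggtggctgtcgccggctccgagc

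The *GABARAPL1* promoter holds TGACGTCA 30 bases before the start, and the *WIPI1* promoter holds ATTGG and CCAAT, beginning 248 and 201 bases before it. Promoters were matched by symbol for 32 of the 40 genes, and motifs were searched on both strands. TGACGTCA was found for 1 of the 32 (3.12%), beside 2.25% of 27305 genes with a promoter in the table. CCAAT was found for 13 of the 32 (40.6%), beside 39.7% of all. CACGTG, the core of the element read by TFEB and its relatives, was found for *ATG3* and *ATG14* (6.25%), beside 8.77% of all. Promoters of the 32 held a median of 24.5 CG pairs, beside 14 over all genes. TGACGTCA and CACGTG both hold a CG pair, so their shares are not compared at like CG content. No overlap between motifs occurs in the printed runs. These matches are letters in a window and were not tested for binding.

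In the ULK kinase complex, which receives the signals of nutrient and energy sensors, no gene was past 2-fold. *ULK1*, the kinase itself, had means of 6637 in iMNs and 8072 in i3Ns (log2 ratio 0.18), and its relative *ULK2* had 6231 and 5553 (-0.27). Per kb, *ULK1* exceeded *ULK2* by 1.83-fold in iMNs and 2.50-fold in i3Ns, and it also did so with the coding length, by 1.05-fold and 1.43-fold. *RB1CC1*, which encodes the scaffold FIP200, had 7512 and 9307 (0.21). The HORMA domain partners differed from each other, *ATG13* with 2923 and 4850 (0.63) and *ATG101* with 939 and 1085 (0.11). Of the 5 ratios, 4 were above 0, with *ULK2* the exception.

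Among the class III PI3-kinase genes, the subunits that tell its 2 complexes apart differed in opposite directions. ATG14 directs the kinase to autophagosome formation and UVRAG to endosomes, and each excludes the other. *ATG14* (ENSG00000126775, chr14:55366391-55411830, minus strand, GRCh38) had means of 860.4 in iMNs and 1590.4 in i3Ns (log2 ratio 0.79). *UVRAG* (ENSG00000198382, chr11:75815210-76144232, plus strand) had 2092 in iMNs and 1543.5 in i3Ns (-0.54). Per kb, *ATG14* was 0.446 times *UVRAG* in iMNs and 1.12 times in i3Ns, a ratio 2.51-fold higher in i3Ns, although neither gene alone was past 2-fold. *UVRAG* stood higher in iMNs and *ATG14* higher in i3Ns with all 3 measures of length.

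The shared subunits differed less. *PIK3C3*, the catalytic subunit VPS34, had 2153 and 2660 (0.21), *PIK3R4*, the regulatory subunit VPS15, had 1255 and 1529.8 (0.19), and *BECN1*, the scaffold beclin 1, had 1641 and 1713 (-0.04). *AMBRA1*, which regulates beclin 1, had 4672 and 3756 (-0.41). For *BECN1* the sign depended on the scaling and turned with no centring and with scaling to table sums. Exons of *ATG14* overlap *FBXO34* on the opposite strand.

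**Figure D3:**
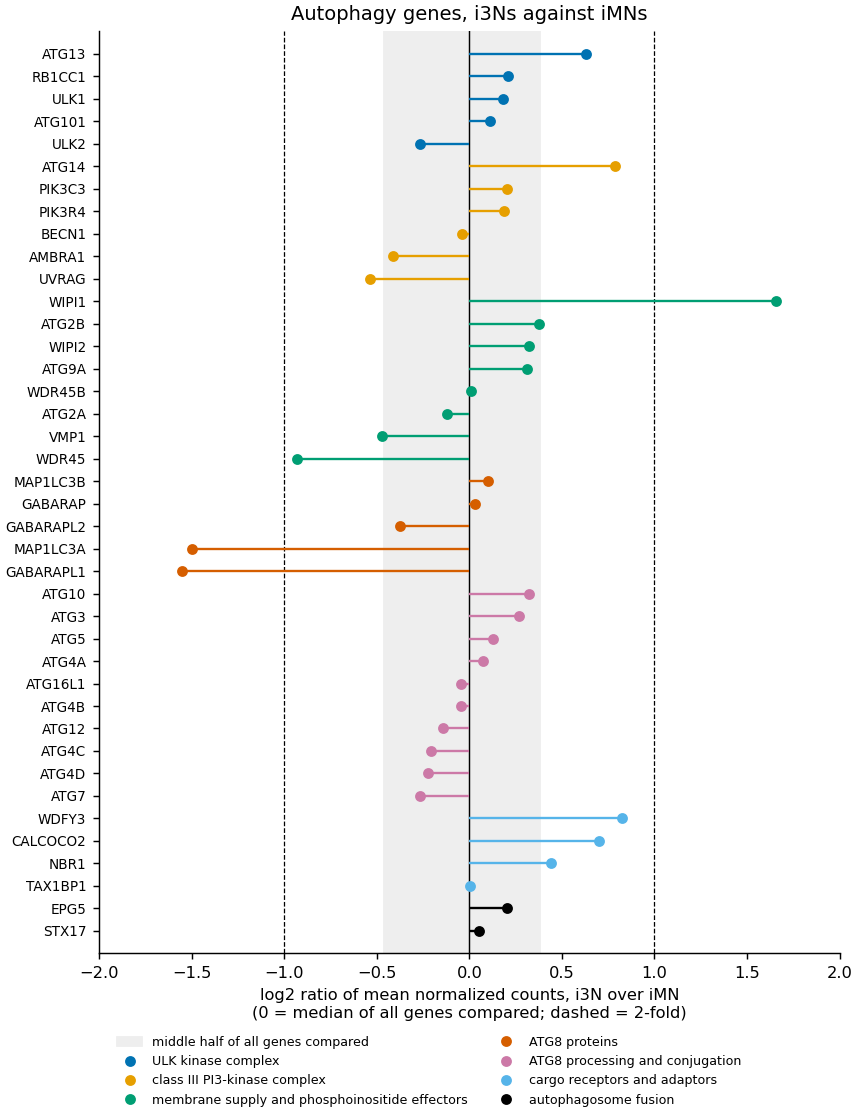
Log2 ratio of mean normalized counts, i3Ns over iMNs (x axis), for each of the 40 genes (rows), grouped and coloured by role, with 0 at the median of all genes compared and dashed lines at 2-fold. The grey band spans the middle quartiles of all genes (-0.46 to 0.38), and *WIPI1* (1.66), *MAP1LC3A* (-1.50) and *GABARAPL1* (-1.55) lie past the dashed lines.

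The 10 genes that process and conjugate the ATG8 proteins differed little. Their log2 ratios ran from -0.27 (*ATG7*) to 0.32 (*ATG10*), with a median of -0.04 and an SD over genes of 0.21, beside an SD of 1.18 over all genes compared. ATG7 is the E1-like enzyme, ATG3 and ATG10 are E2-like enzymes, and ATG12, ATG5 and ATG16L1 form the complex that directs conjugation to the membrane. *ATG7* had means of 756 in iMNs and 673 in i3Ns, *ATG3* had 1077 and 1392, and *ATG10* had 352 and 472. The 3 genes of the complex had log2 ratios of -0.14 (*ATG12*), 0.13 (*ATG5*) and -0.04 (*ATG16L1*).

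Among the ATG4 proteases, which cut ATG8 proteins before conjugation and release them afterwards, *ATG4B* and *ATG4D* led in both neuron types. *ATG4B* took 44.6% of the family level per kb in iMNs and 46.3% in i3Ns, *ATG4D* 38.5% and 35.3%, *ATG4A* 13.3% and 15.0%, and *ATG4C* 3.66% and 3.40%. *ATG4C* was also last of the 40 per kb in both, at 83.9 and 77.9 normalized counts per kb. The fold between the neuron types in *ATG4D* over *ATG4C* was 1.01, and in *ATG4B* over *ATG4A* it was 1.09.

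The 4 cargo receptors and adaptors of the list had log2 ratios from 0.00 to 0.82. Other receptors of the pathway, taken from a second list, mostly lay on the other side, with 9 of 11 below 0, a median of -0.38 and none past 2-fold. *WDFY3* (ENSG00000163625, chr4:84668765-84966690, minus strand, GRCh38) encodes ALFY, a large scaffold that brings protein aggregates to the autophagosome. It had the largest mean of the list in i3Ns, 23150.1 normalized counts against 12200 in iMNs (log2 ratio 0.82). Its reference transcript is long, at 14559 bases, and per kb it ranked 6 of the 40 in i3Ns and 15 in iMNs. *CALCOCO2*, which encodes the receptor NDP52, was weakly expressed, with 472 in iMNs and 823 in i3Ns (0.70). *NBR1*, a receptor for ubiquitinated cargo, had 2928 and 4264 (0.44), and *TAX1BP1*, which works with it, had 4742 and 5097 (0.00), a ratio that turned negative with a filter of 1000. *TAX1BP1* had the highest level per kb after the ATG8 genes in iMNs, 1385.

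For fusion with the lysosome, *STX17*, the autophagosomal SNARE, had 1163 and 1292 (0.05), and *EPG5*, a tether, had 3670.2 and 4537 (0.21). Over the whole list, the sums of the 40 means were 137940.0 in iMNs and 148687 in i3Ns, a log2 ratio of 0.01. This evenness depended on not dividing by length. Per kb, the sums before centring were 48958 in iMNs and 43740 in i3Ns, lower in i3Ns. In the order of levels per kb, the median member lay at the 70.3rd percentile of genes in iMNs and at the 73.6th in i3Ns.

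**Figure D4:**
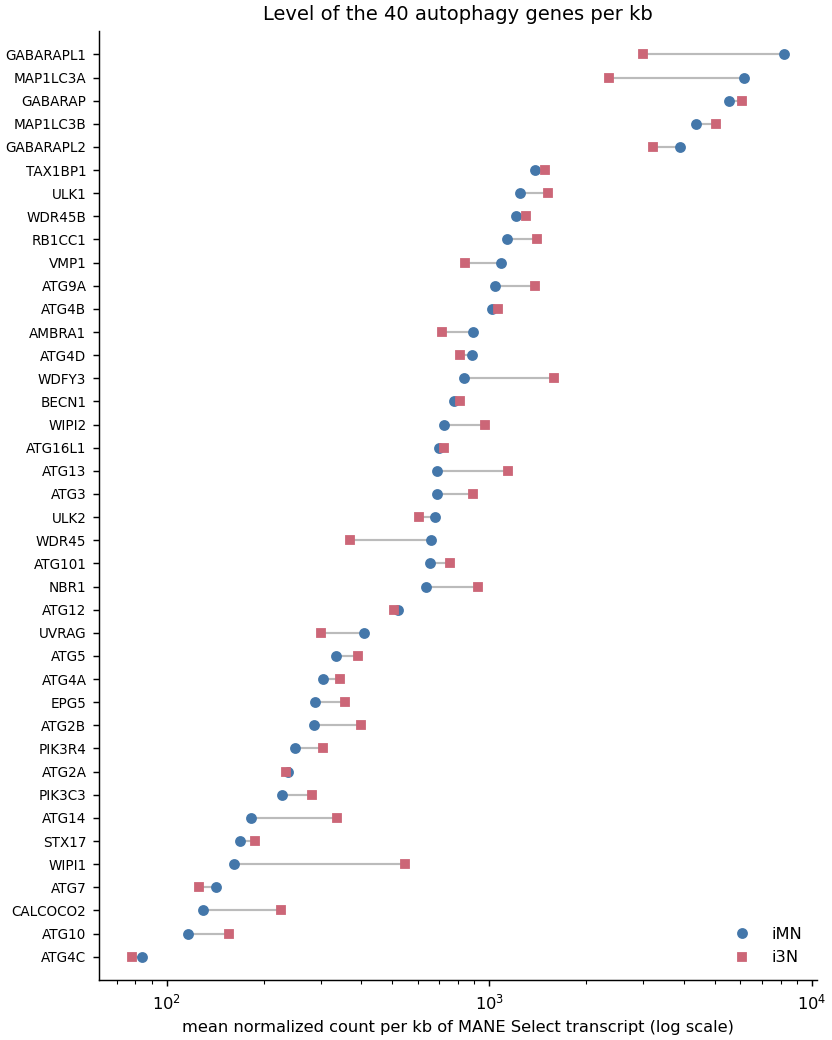
Mean normalized count per kb of MANE Select transcript (x axis, log scale) for the 40 genes (rows, in the order of iMNs), with circles for iMNs and squares for i3Ns. The 5 ATG8 genes stand above the others, from 2342 to 8195, and *ATG4C* is last in both neuron types.

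Other genes of the pathway were taken from a second list of 42, of which 36 passed the same filter on low levels. The 6 with the highest means were within 2-fold, namely *SH3GLB1* (10745 in iMNs and 14737 in i3Ns), *TSC2* (7587 and 8042), *MTOR* (6852 and 7938), *RUBCN* (7614 and 7765), *YKT6* (7006 and 7458) and *NCOA4* (5827 and 6831). MTOR is the kinase that holds autophagy back when nutrients are plentiful, and TSC2 restrains it. None was past 2-fold higher in i3Ns, beside 8.01% of all genes compared, and 3 (8.33%) were past 2-fold higher in iMNs, beside 11.5% of all. The 3 were *ATG9B* (405 and 123 normalized counts), *ATG16L2* (219 and 87.9) and *TFE3* (4203 and 2045). *ATG9B* and *ATG16L2* are relatives of *ATG9A* and *ATG16L1*. TFE3 belongs, with TFEB and MITF, to the factors that switch on autophagy and lysosome genes. *TFEB* (15.1 and 30.8) and *MITF* (8.33 and 57.5) were under the filter, so their ratios are not given. The receptor *SQSTM1*, which encodes p62, had 6723 and 5324 (log2 ratio -0.44) and *OPTN* had 6002 and 4335 (-0.57). The median log2 ratio of the 36 was -0.06.

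The labels of the neuron types were checked against a list of markers, chosen with earlier results of these data known. All 9 motor neuron markers were present in both tables, and 5 of them (*MNX1*, *ISL1*, *ISL2*, *LHX3* and *LHX4*, all transcription factors) were past 2-fold higher in i3Ns. *MNX1*, which encodes HB9, had a mean normalized count of 430 in iMNs and 2279 in i3Ns. Of the cholinergic markers, *SLC5A7* was past 2-fold higher in iMNs (8460 and 2472). *SLC18A3* had 3115 and 1865 (log2 ratio -0.84), and *CHAT* had 533 and 527 (-0.12). The last of the 9, *PRPH*, had 7288 and 5833 (-0.42). The transcription factors of motor neurons thus went against the iMN label. The choline transporter *SLC5A7* went with it, and *SLC18A3* and *PRPH* leaned the same way within 2-fold. Of the 8 glutamatergic markers, 7 were compared and 5 were past 2-fold higher in i3Ns. Among these 5, the vesicular glutamate transporters *SLC17A6* (593 and 11237) and *SLC17A7* (50.1 and 6490) went with the i3N label. *POU3F2* (1792 and 2672, log2 ratio 0.48) and *CUX2* (1734 and 2033, 0.13) were within 2-fold. Of the 6 pan-neuronal markers, 2 were past 2-fold higher in iMNs, the synaptic genes *SYN1* (24262 and 7645) and *SNAP25* (18426 and 4847). The other 4 were within 2-fold, with log2 ratios of 0.16 (*TUBB3*), -0.05 (*STMN2*), -0.55 (*MAP2*) and -0.58 (*RBFOX3*).

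Markers of other cells also differed between the tables. Summed levels of the 5 progenitor markers were 6382 in iMNs and 30635 in i3Ns, nearly all of it *NES* (6043 and 29662). The cycling genes *MKI67* (28.3 and 522) and *TOP2A* (22.5 and 311) were also past 2-fold higher in i3Ns, *PAX6* (234 and 102) was past 2-fold higher in iMNs, and *SOX2* was at 53.9 and 38.9. The 5 mesenchymal markers summed to 2889 and 7108. Of the 3 pluripotency markers, *LIN28A* was at 215 and 4216, while *POU5F1* (34.4) and *NANOG* (7.73) were low in i3Ns and not listed in the iMN table. The 3 GABAergic markers summed to 481 and 170.4 but did not go 1 way. *GAD1* (414 and 10.3) was past 2-fold higher in iMNs, while *SLC32A1* (39.3 and 155), under the filter, was higher in i3Ns. The 4 oligodendrocyte markers summed to 387 and 1146. Of the 4 astrocyte markers 1 was listed in each table, with sums of 29.8 and 3.64, and *GFAP* and *AQP4* were in neither. None of the 3 microglia markers was listed in the iMN table, and *AIF1* was in neither. The part of these cells, of neuronal maturity and of the cell line in the ratios of *WIPI1*, *GABARAPL1* and *MAP1LC3A* was not tested.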

How the data were processed

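RNA-seq of 12 libraries (ribosomal RNA depleted, 3 SCR and 3 *SMN*-KD in iMNs and in i3Ns) was used as deposited. Reads were trimmed by the authors (fastp), transcript abundance was estimated (Salmon) and groups were tested with DESeq2 in each neuron type by itself. STAR, also listed in the submitters' processing notes, served the authors' splicing analysis, which was not used here. Versions, transcript annotation and low-count filter are not given in the sources used here. The authors' deposited signal, used here, is the mean over 6 libraries of counts normalized by DESeq2, 1 value per gene and neuron type. Other deposited columns hold the authors' comparison of *SMN*-KD with SCR neurons (log2 fold change, its standard error, p-value and adjusted p-value) and were not used. A test on counts per library had been planned and could not be made.

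The tables held 16406 (iMNs) and 19016 (i3Ns) genes. They were joined on the Ensembl identifier, keeping the identifier with the highest average where several share a symbol. In the list of other autophagy genes, 1 gene with several identifiers was left out. Genes with an average of at least 100 were compared (log2 of i3Ns over iMNs, centred on their median, past 2-fold called). Levels per kb used MANE Select lengths from GENCODE release 44 (GRCh38, the build the labels name as hg38). Exons of 22 of the 40 genes overlap another annotated gene, for 4 of them on the same strand. Whether counting used strand is not stated.

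Members, lists, pairs and motifs were chosen with earlier results of these data known. All 40 members are named, and every member past 2-fold is given in full. Of each other list (markers by cell type), up to 6 genes with the highest means were to be named. *MNX1*, *LHX3*, *CHAT*, *MAP1LC3B2*, *ATG9B*, *ATG16L2*, *TFE3*, *TFEB*, *MITF*, *PRKAA1*, *SQSTM1* and *OPTN* were added after their values were seen. Steps were tested on simulated data (Python 3.11.15, pandas 2.3.3, numpy 2.4.6). Alternatives changed centring, filter, fold, identifiers and length.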

Additional observations from a re-analysis of the deposited data

How the results depend on the processing

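*GABARAPL1*, *MAP1LC3A* and *WIPI1* were the members past 2-fold with no centring, with each table scaled to its own sum, with a filter of 10, with no filter and with the identifiers of a symbol summed. A filter of 1000 left 33 members and 2 past 2-fold, since *WIPI1* fell below it. At 1.5-fold 8 members were past the threshold (beside 37.2% of all genes compared), and at 3-fold 1 was, *WIPI1* (beside 10.02%). The median log2 ratio of the members was 0.16 with no centring and between 0.04 and 0.11 under the other alternatives. With no centring, 37 of 40 members kept the sign of their ratio, the exceptions being *ATG16L1*, *ATG4B* and *BECN1*. Members above the 90th percentile numbered 5 in each neuron type, and 5 or 6 with other lengths. With no division by length there were also 5 in each, of which 3 (iMNs) and 2 (i3Ns) were ATG8 genes, and *RB1CC1* and *WDFY3* were among the rest in both. Of 10 pairs of related genes, 6 kept the same member higher in both neuron types, against 8 with the longest annotated transcript and 8 with the coding length. The higher member was the same in both neuron types and with all 3 lengths for 6 pairs. *ATG14* and *UVRAG* changed order between the neuron types with every length. Within the ATG8 family the order rested on the length only in part. For *MAP1LC3B* and *MAP1LC3A*, and for *GABARAP* and *GABARAPL1*, it changed with length in iMNs but not in i3Ns. For *GABARAPL2* and *GABARAPL1* it changed with length in i3Ns but not in iMNs. Without values per library, no replicate could be left out and the precision of each mean is unknown. No paired analysis was possible because each mean used pools all 6 libraries of a neuron type.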
